A study of Homo sapiens with 4 samples.

Results

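The B-cell identity transcription factors described here are 10 genes, EBF1, PAX5, TCF3, FOXO1, SPI1, SPIB, POU2AF1, POU2F2, IKZF1 and IKZF3, chosen by name as core regulators of the B lineage out of the 41507 genes measured. All 10 were found in the gene table, and 81 of the 67765 transcripts in the transcript table belonged to them. SU-DHL-5 and Toledo, established cell lines of diffuse large B-cell lymphoma (DLBCL) labelled as B lymphocytes, were each treated with DMSO, the vehicle, or with JQ1 at 1 µM, an inhibitor that keeps the bromodomains of BET proteins off acetylated histones. The labels give 6 h of treatment, and the text of the study gives a longer time. There was 1 sample for each of the 4 conditions, SU-DHL-5 with DMSO, SU-DHL-5 with JQ1, Toledo with DMSO and Toledo with JQ1, and each sample had 2 libraries whose relation the labels do not give. The libraries were averaged and counted as 1 replicate, which leaves n = 1 per condition, no test between samples and no p-values.

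A lymphoid progenitor becomes a B cell when E2A, the product of TCF3, and EBF1 switch on PAX5, which then turns on genes of the B-cell receptor and its signalling and shuts genes of other lineages. PU.1 (SPI1) and SPIB are related ETS factors that act on many of the same enhancers. OCT2 (POU2F2) and its coactivator OBF1 (POU2AF1) bind the octamer of immunoglobulin and other B-cell genes, IKAROS (IKZF1) and AIOLOS (IKZF3) are zinc finger factors of lymphocytes, and FOXO1 acts downstream of PI3K signalling. Genes of cell identity often carry large clusters of BET-bound enhancers, which is why BET inhibitors are studied for their effect on them.

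Values are RPKM, which divide the reads of a gene by its length in kilobases and by the library's mapped reads, so levels can be set side by side between genes. Mapped reads recovered from the RPKM values were 14617583 to 17679831 per library. HEXIM1, whose mRNA is commonly raised by BET inhibitors, was at 4.35 and 3.89 RPKM with DMSO and at 22.4 and 22.9 RPKM with JQ1 in SU-DHL-5, and at 4.04 and 3.94 against 23.9 and 24.5 RPKM in Toledo. All 7 B-cell markers checked, among them CD79A, CD79B, MS4A1, CD22, CD37 and BLK, were above 1 RPKM in all 4 samples. The summed level of 9 T-cell markers was at most 12.9 RPKM, of which CD247 gave 11.7 RPKM in SU-DHL-5 with DMSO (4.91 RPKM with JQ1), and 6 of the 9 were listed at 0 in the DMSO sample. The summed levels of 9 monocyte or macrophage, 4 NK-cell, 4 erythroid and 2 plasma-cell markers were at most 1.36, 0.457, 0.422 and 1.22 RPKM in any library. In Toledo with DMSO, the log2 ratio of library 2 over library 1 rose with transcript length across 9467 genes, which are not independent replicates (Spearman's rho of 0.62). For the identity factors this ratio ran from -0.07 to 0.40 in that sample, and the comparisons with Toledo DMSO were repeated with centring on genes of like length.

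RPKM are shares of the mRNA of a culture, so that fewer cells with a transcript and less of it per cell cannot be told apart. Genes that overlap the factors in the table were listed at 0 RPKM. Under DMSO, all 10 factors had at least 1 RPKM in both lines, and their levels spanned 1.86 to 99.3 RPKM in SU-DHL-5 and 1.21 to 101 RPKM in Toledo. In SU-DHL-5 the order was TCF3 at 99.3, POU2AF1 at 90.2, SPI1 at 85.9, SPIB at 61.9, IKZF1 at 41.5, POU2F2 at 29.2, IKZF3 at 29.1, PAX5 at 9.51, FOXO1 at 8.46 and EBF1 at 1.86 RPKM, as means over both libraries. The libraries of POU2AF1 and SPI1 overlapped, as did those of POU2F2 and IKZF3, and all other neighbours in this order were apart. TCF3 stood above 92.1% and EBF1 above 8.71% of the 9120 genes of at least 1 RPKM in this sample. In Toledo the order was SPIB at 101, TCF3 at 92.7, POU2AF1 at 65.1, SPI1 at 58.9, IKZF1 at 31.6, PAX5 at 16.4, EBF1 at 14.2, IKZF3 at 10.8, FOXO1 at 5.27 and POU2F2 at 1.21 RPKM. Only the libraries of PAX5 and EBF1 overlapped there. The upper ranks thus held the same 4 genes in both lines, and the lines differed at the lower end, where EBF1 was last in SU-DHL-5 and POU2F2 last in Toledo. The level of POU2AF1 depended on the length used: 1 transcript of 3032 bases, POU2AF1_4, gave 141 to 157 RPKM in SU-DHL-5 with DMSO, while the gene value is spread over 5573 bases. The order of the first ranks depended on this choice. With transcripts summed per gene, POU2AF1 came first in SU-DHL-5 at 165 RPKM, before TCF3 at 137 RPKM, with libraries apart. In Toledo TCF3 then came first at 127 RPKM, with POU2AF1 at 119 RPKM and overlapping libraries, and SPIB followed at 102 RPKM.

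**Figure D1:**
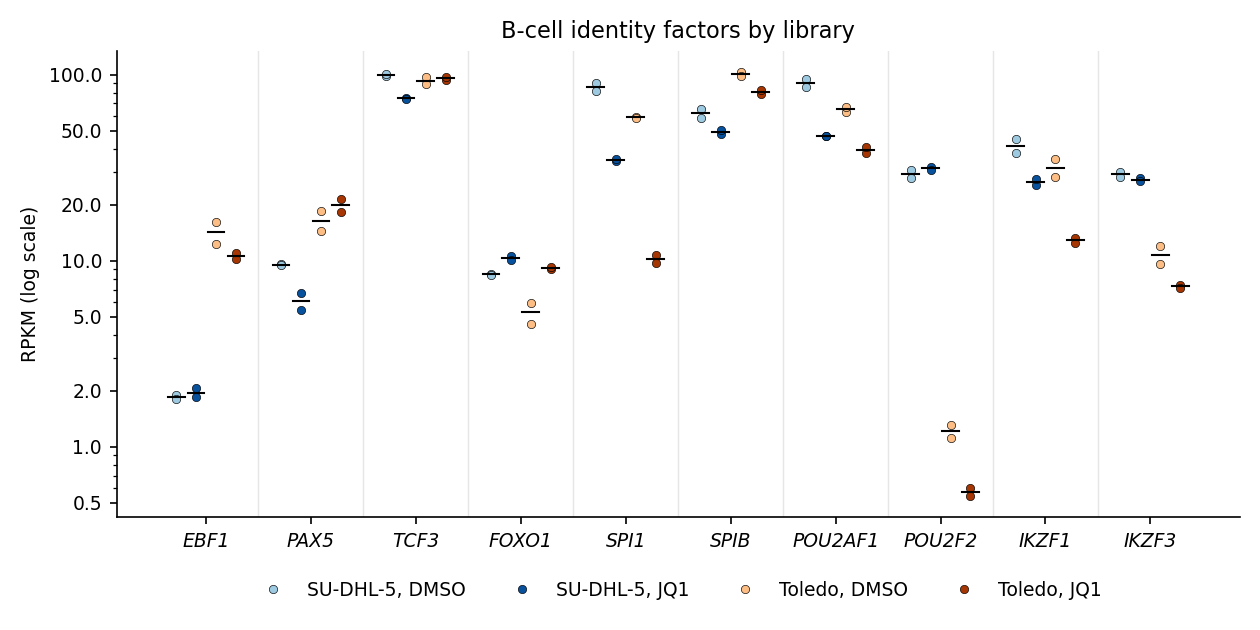
RPKM on a log scale for the 10 identity factors in the 4 samples. Each point is 1 library and each short line the mean of the 2 libraries of a sample. SPI1 is lower with JQ1 in both lines, EBF1 is low in both SU-DHL-5 samples, and POU2F2 is low in both Toledo samples.

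The first comparison asked how the lines differ before treatment. Ratios are given as log2((RPKM + 0.1)/(RPKM + 0.1)), and a gene was called at a 2-fold difference, a log2 ratio of at least 1 or at most -1, if it had at least 1 RPKM in either sample. Of the 10 factors, 1 was higher by 2-fold or more in Toledo, where 16.7% of 10078 genes were, and 2 were at 0.5 or less of the SU-DHL-5 level, where 14.2% of genes were. The median log2 ratio of the 10 was -0.43, against 0.0047 for all genes. Libraries were all higher in Toledo for 3 factors (background 43.2% of genes) and all lower for 7 (background 41.9%), so that non-overlap of libraries is common in this comparison and says little of these genes in particular.

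EBF1, the pioneer factor of the B lineage, had 1.91 and 1.82 RPKM in the DMSO libraries of SU-DHL-5 and 12.2 and 16.2 RPKM in those of Toledo. Toledo was 7.63-fold higher, with a log2 ratio of 2.87 and a 95% exact binomial interval of the read ratio from 2.76 to 3.10, from 327 and 2577 reads. PAX5, which commits cells to the lineage, was at 9.56 and 9.46 RPKM in SU-DHL-5 and at 14.4 and 18.4 RPKM in Toledo, 1.73-fold higher in the latter. TCF3 was nearly level, with 98.3 and 100.2 RPKM against 88.8 and 96.6 RPKM. The trio at the head of the B-cell program therefore differed between the lines mainly in EBF1. All intervals cover counting error only.

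POU2F2 showed the reverse pattern, with 30.7 and 27.7 RPKM in SU-DHL-5 and 1.12 and 1.30 RPKM in Toledo. The Toledo level was 24.1-fold lower, the log2 ratio was -4.48 (read ratio -4.60, interval -4.77 to -4.43), and 1.31% of the 10078 genes had a lower ratio. Its coactivator POU2AF1 was at 94.6 and 85.8 RPKM against 63.1 and 67.2 RPKM, a 1.39-fold difference in the same direction. POU2F1, the broadly expressed paralog of POU2F2, was at 3.37 RPKM in SU-DHL-5 and 2.94 RPKM in Toledo, with overlapping libraries. IKZF3 was at 30.1 and 28.1 RPKM in SU-DHL-5 and 9.57 and 12.0 RPKM in Toledo, 2.70-fold lower in Toledo. SPIB was 1.63-fold higher in Toledo, and SPI1, IKZF1 and FOXO1 were 1.46-fold, 1.31-fold and 1.60-fold lower. The log2 ratio of IKZF1 was -0.39 from the means, -0.68 from library 1 and -0.11 from library 2 alone.

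**Figure D2:**
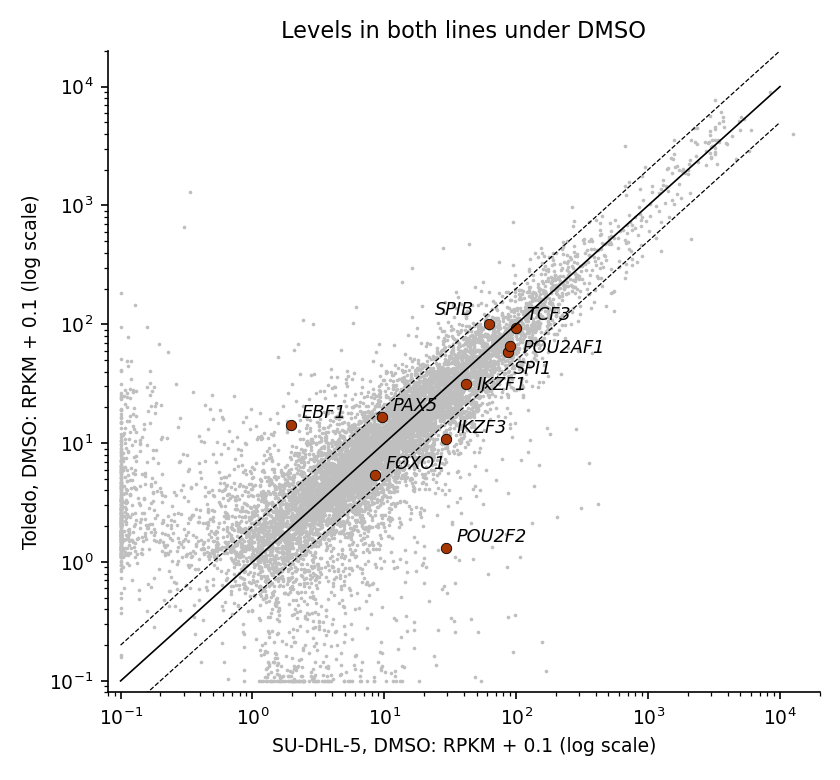
Mean RPKM + 0.1 in SU-DHL-5 (horizontal) and Toledo (vertical) under DMSO, both on log scales. Grey points are genes of at least 1 RPKM in any sample, filled points the identity factors, the solid line equal levels and the dashed lines 2-fold differences. EBF1 lies above the upper dashed line, and POU2F2 and IKZF3 lie below the lower.

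The second comparison asked what JQ1 did to the factors in each line. In SU-DHL-5, 1 of 10 was at 0.5 or less of its DMSO level, where 6.28% of 9316 genes were, and 0 were at 2-fold or more, where 1.84% of genes were. In Toledo, 2 of 10 were at 0.5 or less, where 8.01% of 9646 genes were, and 0 at 2-fold or more, where 1.94% were. The factors had median log2 ratios of -0.37 (SU-DHL-5) and -0.49 (Toledo), against 0.02 and -0.07 for all genes. In SU-DHL-5 the JQ1 libraries were all lower for 7 factors (background 38.5%) and all higher for 1 (background 42.1%). In Toledo they were all lower for 7 (background 43.6%) and all higher for 1 (background 29.5%). In both lines together, 5 factors had JQ1 libraries all lower, SPI1, SPIB, POU2AF1, IKZF1 and IKZF3, as had 29.3% of the 8718 genes of at least 1 RPKM in both comparisons. FOXO1 was all higher in both, as were 24.4% of those genes, so that shared directions were common.

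SPI1 showed the lowest ratio of the 10 in both lines. It was at 89.6 and 82.1 RPKM with DMSO and at 34.3 and 35.1 RPKM with JQ1 in SU-DHL-5, and at 59.3 and 58.6 RPKM against 10.8 and 9.73 RPKM in Toledo. The JQ1 level was 2.48-fold lower in SU-DHL-5 (log2 ratio -1.31, interval -1.39 to -1.22) and 5.74-fold lower in Toledo (log2 ratio -2.51, interval -2.67 to -2.38). Lower ratios were found for 4.06% of the genes of SU-DHL-5 and 1.16% of those of Toledo. SPIB, its lymphoid relative, was much less affected, with 65.2 and 58.5 RPKM against 47.9 and 50.6 RPKM in SU-DHL-5 and 103 and 98.4 RPKM against 78.7 and 82.6 RPKM in Toledo. The SPIB log2 ratios of -0.33 and -0.32 were nearly equal, although library 2 alone gave -0.21 in SU-DHL-5. With JQ1, SPIB thus stood above SPI1 in both lines, at 49.3 against 34.7 RPKM in SU-DHL-5 and 80.7 against 10.3 RPKM in Toledo, whereas SPI1 had been the higher of the pair in SU-DHL-5 with DMSO.

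POU2AF1 followed SPI1 in SU-DHL-5, with 94.6 and 85.8 RPKM with DMSO and 46.8 and 46.7 RPKM with JQ1. Its log2 ratio of -0.95 (interval -0.98 to -0.91) lay just short of the 2-fold threshold, and library 1 alone gave -1.02. In Toledo it was at 63.1 and 67.2 RPKM against 38.0 and 40.9 RPKM, a log2 ratio of -0.72 (interval -0.76 to -0.68). POU2F2 differed from its coactivator in SU-DHL-5, where its libraries overlapped at 30.7 and 27.7 RPKM against 32.1 and 30.6 RPKM and its ratio changed sign when transcripts were summed or genes of like length were used for centring. In Toledo, from its low level of 1.12 and 1.30 RPKM, it was at 0.599 and 0.543 RPKM with JQ1. That log2 ratio was -0.97 with the pseudocount and -1.08 in reads (interval -1.38 to -0.78, from 294 and 133 reads), so that its side of the 2-fold threshold is not resolved at this depth.

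IKZF1 was lower with JQ1 in both lines, at 44.9 and 38.0 RPKM against 25.6 and 27.6 RPKM in SU-DHL-5 and at 28.0 and 35.2 RPKM against 13.2 and 12.5 RPKM in Toledo. The JQ1 level was 1.56-fold lower in the former (log2 ratio -0.64) and 2.45-fold lower in the latter (log2 ratio -1.29, interval -1.35 to -1.22). IKZF3 stayed closer to its DMSO level, with 30.1 and 28.1 RPKM against 27.7 and 26.7 RPKM in SU-DHL-5 and 9.57 and 12.0 RPKM against 7.43 and 7.15 RPKM in Toledo. The IKZF3 log2 ratio was -0.10 in the former and -0.56 in the latter. With centring on genes of like length it was -0.32 and -0.63. The spread between the DMSO libraries of Toledo was wide for both genes. Library 1 alone gave -1.08 for IKZF1 and -0.36 for IKZF3, and library 2 alone gave -1.48 and -0.73.

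EBF1, PAX5 and TCF3 gave no common direction. PAX5 was at 9.56 and 9.46 RPKM with DMSO and at 6.70 and 5.46 RPKM with JQ1 in SU-DHL-5, 1.56-fold lower. Its log2 ratio there was -0.64 from the means and -0.86 with centring on genes of like length. In Toledo PAX5 was at 14.4 and 18.4 RPKM against 21.6 and 18.2 RPKM, where the libraries overlapped. Library 2 alone gave a log2 ratio of -0.02 in Toledo, against 0.27 for the mean. TCF3 was 1.33-fold lower in SU-DHL-5, at 98.3 and 100.2 RPKM against 75.4 and 73.8 RPKM, and overlapped in Toledo, at 88.8 and 96.6 RPKM against 93.9 and 97.4 RPKM. EBF1 overlapped in SU-DHL-5, where 327 reads with DMSO and 329 with JQ1 gave an interval from -0.15 to 0.31 on the log2 scale, and was 1.34-fold lower in Toledo, at 12.2 and 16.2 RPKM against 11.0 and 10.2 RPKM. That log2 ratio of -0.42 was -0.15 from library 1 and -0.66 from library 2 alone.

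FOXO1 was the only factor whose JQ1 libraries were all higher in both lines. It was at 8.52 and 8.41 RPKM with DMSO and 10.6 and 10.1 RPKM with JQ1 in SU-DHL-5, and at 4.59 and 5.96 RPKM against 9.01 and 9.23 RPKM in Toledo. SU-DHL-5 gave a log2 ratio of 0.29 (interval 0.20 to 0.39) and Toledo one of 0.78 (interval 0.69 to 0.91), and 3.74% of the genes of Toledo had a higher ratio. With JQ1 the lines lay closer together in FOXO1 than with DMSO, at 10.4 and 9.12 RPKM against 8.46 and 5.27 RPKM. FOXO3 had log2 ratios of 0.47 and 0.39 with libraries all higher, and FOXO4 of -0.62 and -0.38 with libraries all lower.

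**Figure D3:**
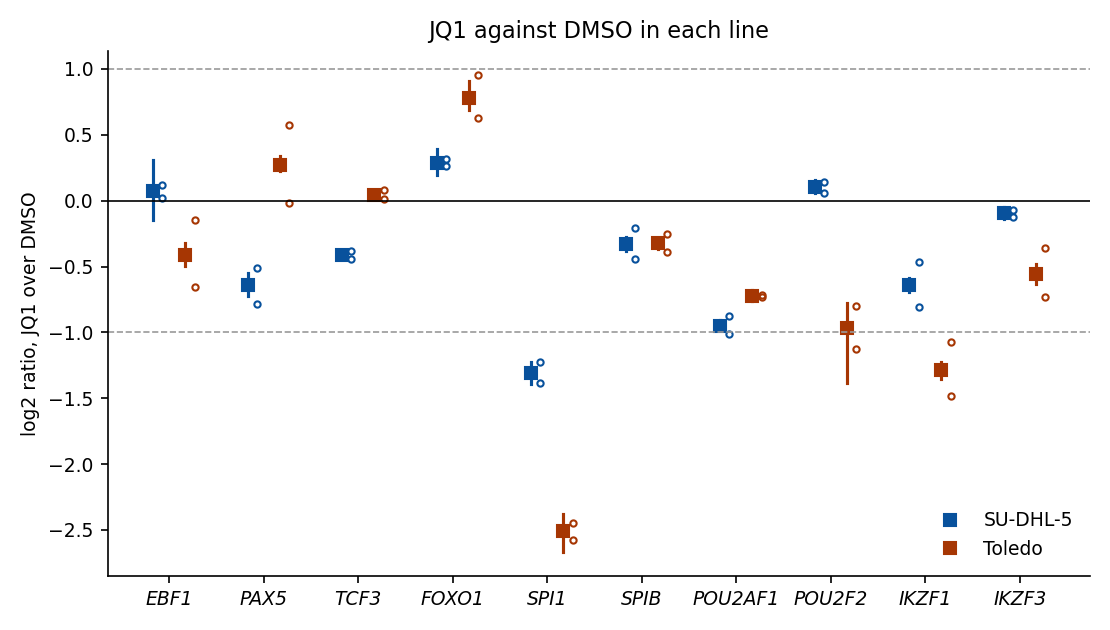
log2 ratio of JQ1 over DMSO for each factor in SU-DHL-5 and Toledo. Squares are the ratios of the mean RPKM + 0.1, vertical bars the 95% exact binomial intervals of the read ratio, open circles the ratios of library 1 and of library 2 alone, and dashed lines 2-fold differences. SPI1 is at -1.31 and -2.51, and FOXO1 is above 0 in both lines.

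The JQ1 ratios of the lines were then set against each other. They differed by a log2 value of 1 or more for 2 of 10 factors, where 2.06% of 8718 genes did. SPI1 was lower in Toledo by 1.20 on the log2 scale. POU2F2 had ratios of 0.10 (SU-DHL-5) and -0.97 (Toledo), a difference of -1.07. That difference fell under 1 in size with a pseudocount of 1 RPKM, with scaling or with summed transcripts. It also did so with centring on genes of like length and with library 1 alone. PAX5 differed by 0.91 in the other direction, with ratios of -0.64 and 0.27, and IKZF1 by -0.65. The PAX5 ratios were -0.86 and 0.20 with centring and -0.51 and 0.58 with library 1 alone. In both settings PAX5 differed by more than 1. Libraries all lower in 1 line and all higher in the other were found for 0 of the 10 factors and for 6.95% of the 8718 genes. After treatment PAX5 was 3.27-fold higher in Toledo (1.73-fold with DMSO), SPI1 was 3.38-fold higher in SU-DHL-5 (1.46-fold), and IKZF1 was 2.06-fold higher in SU-DHL-5 (1.31-fold). These differences between lines were not tested, because each line had 1 sample per treatment.

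The transcript table adds which forms carried these levels. Transcripts are named as in the files, positions are on GRCh38, and the way in which the authors divided reads among transcripts of shared sequence is not given in the sources used here. IKZF3 (chromosome 17, 39757715 to 39864188, minus strand) gave the largest contrast. Its full-length transcript IKZF3_14, which has the start, end and length of IKZF3-203 in GENCODE release 29 (8 exons, 509 residues), was at 11.1 and 7.87 RPKM with DMSO in SU-DHL-5 and at 7.61 and 7.76 RPKM in Toledo. IKZF3_16, which starts inside the gene at 39778225, was at 18.3 and 17.4 RPKM in SU-DHL-5 and at 0 and 0.42 RPKM in Toledo. It took 56.7% of the gene's reads in SU-DHL-5 with DMSO (95% Clopper-Pearson interval 55.7 to 57.7%, 5389 of 9498 reads) and 1.73% in Toledo (interval 1.33 to 2.21%, 63 of 3637 reads). In Toledo all 63 reads came from library 2, and library 1 had 0. These intervals pool the libraries and cover counting error only. They measure neither the spread between libraries nor the division of reads among transcripts.

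Without IKZF3_16, the summed transcripts of IKZF3 were at 13.7 and 12.6 RPKM in SU-DHL-5 and at 9.98 and 12.0 RPKM in Toledo under DMSO. The log2 ratio between the lines was then -0.26, against -1.46 with all transcripts. As the reads were divided in the deposited values, most of the IKZF3 difference lay in the transcript with the internal start. This setting was chosen after the values were seen. IKZF3_16 is high in SU-DHL-5 and low in Toledo, so leaving it out had to narrow the difference. GENCODE annotates 1 transcript with the same start, IKZF3-216, with 3 exons, 262 residues and 341 bases that are not in IKZF3-203 (39777885 to 39778225), but with another end than IKZF3_16. IKZF3_16 was as high with JQ1, at 19.1 and 17.6 RPKM in SU-DHL-5, while the other IKZF3 transcripts together went to 10.5 and 11.0 RPKM, a log2 ratio of -0.30 in that line and -0.57 in Toledo.

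**Figure D4:**
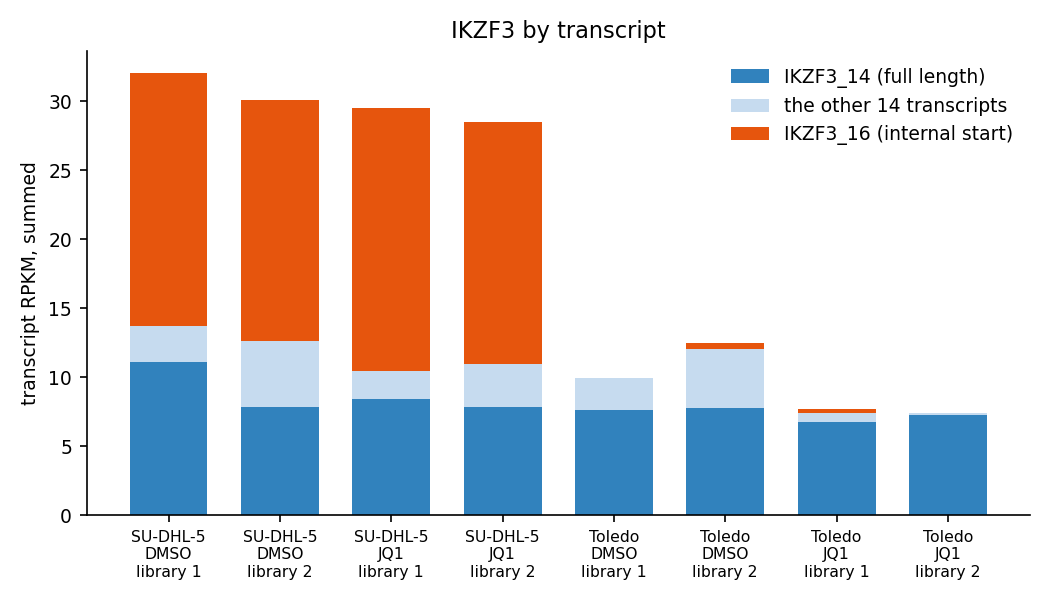
Summed transcript RPKM of IKZF3 in each of the 8 libraries, split into the full-length transcript IKZF3_14, IKZF3_16 with its internal start, and the other 14 transcripts. The height of IKZF3_14 is 6.79 to 11.1 RPKM in all libraries, and IKZF3_16 is 17.4 to 19.1 RPKM in SU-DHL-5 and at most 0.42 RPKM in Toledo.

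Under DMSO, 9 of the 81 transcripts differed in their share of the gene by 10 percentage points or more between the lines with libraries apart. Over transcripts of genes expressed in both lines, 14.1% of 26255 did. That background left out transcripts with no value and genes of 1 transcript, whereas only 67 of the 81 had a value. The share of 9 in 81 is therefore too low to set against it. Of the 9, 2 belonged to POU2F2, which had few reads in Toledo. PAX5 (chromosome 9, 36833275 to 37034479, minus strand) also had transcripts among the 9. PAX5_12, which starts at 37026718, held 15.0% of its summed RPKM in SU-DHL-5 and 32.3% in Toledo, while 11 transcripts start at 37034479. The PAX5_12 share was 23.2 and 41.4% in the DMSO libraries of Toledo, a gap as wide as the difference between the lines. SPIB (chromosome 19, 50418938 to 50431053, plus strand) had a transcript that differed less in share but clearly in level, SPIB_4, which lies within 5 bases of SPIB-202 in GENCODE (171 residues). It was at 0.71 and 1.07 RPKM in SU-DHL-5 and at 11.5 and 8.30 RPKM in Toledo, 1.45% and 9.72% of the gene. TCF3 (chromosome 19, 1609290 to 1652334, minus strand) was divided alike in all 4 samples, with 49.1 to 52.2% on TCF3_1 and 32.3 to 35.2% on TCF3_2, which starts at 1650287.

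For JQ1, too, transcripts with no value count among the 81 and not in the backgrounds. JQ1 moved the share of 2 of 81 transcripts by 10 points or more with libraries apart in SU-DHL-5, where 10.3% of 28252 transcripts did. In Toledo it moved 6 of 81, where 11.5% of 28896 did. These were 6 different transcripts, since 2 of EBF1 moved in both lines, in opposite directions. EBF1_1 changed by -20.3 points in SU-DHL-5 and by 12.4 in Toledo, and EBF1_5 by 15.9 and -17.7. Of the 6, 4 belonged to EBF1 (chromosome 5, 158695908 to 159099780, minus strand), whose shares differed by up to 54.6 points between the libraries of 1 sample, and 2 to IKZF3 in Toledo. There IKZF3_14 went from 69.3 to 93.0% and IKZF3_12, a transcript of 9550 bases with the same start and end, from 15.6% to a listed 0. No transcript of SPI1 (chromosome 11, 47354858 to 47378576, minus strand), POU2AF1 (chromosome 11, 111352251 to 111379619, minus strand) or IKZF1 (chromosome 7, 50304782 to 50405101, plus strand), the 3 genes with the lowest gene ratios in SU-DHL-5, moved by this rule in either line. SPI1 has 2 transcripts that differ by 3 bases, both from the same start, and both were lower with JQ1. SPI1_1 was at 64.3 and 58.3 RPKM against 20.4 and 26.7 RPKM in SU-DHL-5, and at 46.3 and 43.4 RPKM against 7.83 and 7.10 RPKM in Toledo. POU2F2 (chromosome 19, 42086110 to 42132473, minus strand) and FOXO1 (chromosome 13, 40555664 to 40666597, minus strand) complete the set. POU2F2 had 133 to 294 reads in the Toledo samples, too few to describe its 8 transcripts, and FOXO1 has 1 transcript.

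The sequence before the start sites was searched for sites of the factors themselves, since they are known to bind one another's genes. RefSeq (GRCh38.p14) gave a window for 7 of the 10 genes, all but SPI1, POU2AF1 and IKZF3, and the 250 bases before each start were searched on both strands for ATTTGCAT (octamer), CCCNNGGG (EBF1), CAGCTG and CACCTG (E proteins such as E2A), GAGGAAGT (PU.1), TGGGAA (IKAROS) and GTAAACA (FOXO). Matches were found for 3 genes, EBF1, IKZF1 and SPIB. The 7 genes had 9 windows, 3 of them of IKZF1. CAGCTG was found in 2 of the 9 windows and in 14.0% of all 35116 windows, CCCNNGGG in 2 and in 17.1%, and TGGGAA in 2 and in 20.8%. The octamer, CACCTG, GAGGAAGT and GTAAACA were found in 0 of the 9 windows and in 1.63%, 17.5%, 2.17% and 2.98% of windows. The windows of IKZF1 and SPIB are shown because they hold a match and their RefSeq starts lie within 100 bases of a start in the files, at 66 and 0 bases. The EBF1 window, with CAGCTG and TGGGAA, lies 637 bases from such a start. The windows of POU2F2 and FOXO1 lie 14 and 44 bases from one and hold no match. Capitals mark the matches, which are CAGCTG, an instance of CCCNNGGG and TGGGAA for IKZF1 and an instance of CCCNNGGG for SPIB. None of these matches overlap.
IKZF1 (chr7:50304466-50304715, plus strand): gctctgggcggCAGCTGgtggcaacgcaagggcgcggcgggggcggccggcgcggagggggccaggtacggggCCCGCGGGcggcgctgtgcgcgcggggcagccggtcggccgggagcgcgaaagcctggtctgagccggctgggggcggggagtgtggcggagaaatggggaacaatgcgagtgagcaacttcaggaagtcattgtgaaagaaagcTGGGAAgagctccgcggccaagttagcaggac
SPIB (chr19:50418688-50418937, plus strand): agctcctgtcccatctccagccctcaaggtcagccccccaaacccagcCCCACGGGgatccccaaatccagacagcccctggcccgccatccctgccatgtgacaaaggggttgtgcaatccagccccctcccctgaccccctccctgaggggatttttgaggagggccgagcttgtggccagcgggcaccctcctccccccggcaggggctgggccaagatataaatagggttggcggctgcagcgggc
A match describes letters in this window and is not a binding site. The IKZF1 level was lower with JQ1 by 0.64 and 1.29 on the log2 scale and the SPIB level by 0.33 and 0.32, as given above.

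The factors were last set beside related genes and genes they are known to control. These lists were chosen with earlier results of these data known. Among 15 paralogs, 8 passed 1 RPKM in SU-DHL-5 and 7 in Toledo, with median log2 ratios of -0.34 and -0.38. Of these, 1 was at 0.5 or less in SU-DHL-5 and 0 in Toledo, where 6.28% and 8.01% of all genes were. It was SPIC, the third member of the SPI family, at 2.14 and 2.19 RPKM against 0.74 and 0.64 RPKM from 99 and 30 reads. In Toledo SPIC was listed at 0. IKZF2 was next lowest in SU-DHL-5 at -0.63, TCF12 and POU2F1 were lowest in Toledo at -0.57 and -0.50, and FOXO3 and IKZF5 were highest in both lines, at 0.47 and 0.41 in SU-DHL-5 and at 0.39 and -0.01 in Toledo. Under DMSO, 3 of 8 paralogs were higher by 2-fold or more in Toledo, where 16.7% of all genes were. Among the 3, IKZF2 (HELIOS) had 1.13 RPKM in SU-DHL-5 and 12.0 RPKM in Toledo.

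Of 20 other transcription factors of the B lineage, 13 passed 1 RPKM in SU-DHL-5, with a median log2 ratio of 0.02 for JQ1, and 19 in Toledo, with a median of -0.36. In SU-DHL-5, 1 of the 13 was at 0.5 or less, where 6.28% of all genes were. MYB was lowest there at -1.45, followed by GFI1 at -0.68, and BCL6 and MEF2B were highest at 0.29 and 0.32. In Toledo, 5 of 19 were at 0.5 or less, where 8.01% of all genes were, with IRF8 lowest at -3.09 and MEF2C next at -1.22. At 2-fold or more was 1 of 19, where 1.94% of all genes were. It was KLF2 at 1.26, followed by BACH2 at 0.57. IRF8, a partner of PU.1, was at 47.4 and 45.9 RPKM against 48.8 and 50.5 RPKM in SU-DHL-5 and at 3.76 and 4.21 RPKM against 0.39 and 0.37 RPKM in Toledo. Under DMSO, 9 of 19 in this list were higher and 5 lower by 2-fold or more in Toledo, where 16.7% and 14.2% of all genes were. MEF2B and BCL6, germinal centre factors, were at 312 and 38.2 RPKM in SU-DHL-5 and 2.77 and 2.48 RPKM in Toledo, and IRF4 and KLF2 at 0.01 and 0.02 RPKM in SU-DHL-5 and 48.8 and 24.0 RPKM in Toledo.

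Of 24 known targets of PAX5 and EBF1, 20 passed 1 RPKM in each line. With JQ1, 10 of 20 were at 0.5 or less in SU-DHL-5 and 11 of 20 in Toledo, where 6.28% and 8.01% of all genes were. Because the list was chosen with earlier results of these data known, these shares describe the listed genes only, and their excess was not tested. At 2-fold or more were 0 in either line. Their median log2 ratios of -0.93 and -1.29 were lower than those of the factors, -0.37 and -0.49. CD72, a coreceptor of the B-cell receptor, and VPREB3 were lowest in SU-DHL-5 at -3.01 and -2.98. VPREB3 and IRF8 were lowest in Toledo, at -3.72 and -3.09. ID3 and TNFRSF13C were highest in SU-DHL-5 at 0.13 and 0.20, and IRF4 and BACH2 in Toledo at 0.26 and 0.57. PAX5 itself was 1.56-fold lower in SU-DHL-5 and overlapped in Toledo, and EBF1 overlapped in SU-DHL-5 and was 1.34-fold lower in Toledo. The list holds the 7 B-cell markers checked above, whose summed level was 1008 RPKM with DMSO and 678 RPKM with JQ1 in SU-DHL-5 and 951 and 629 RPKM in Toledo. Some genes stand in more than 1 list, such as IRF8, KLF2 and BLNK.

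Of 15 known FOXO1 targets, 8 passed 1 RPKM in SU-DHL-5 and 14 in Toledo, with median log2 ratios of -0.14 and 0.09. Among the low ratios were those of BLNK, a B-cell receptor adaptor, at -1.45 in SU-DHL-5 and of IL7R, an interleukin receptor chain, at -2.45 in Toledo. SESN1 and BCL2L11 were highest in SU-DHL-5 at 0.63 and 0.92, and SESN1 and KLF2 in Toledo at 0.60 and 1.26. At 0.5 or less were 2 of 8 and 3 of 14, where 6.28% and 8.01% of all genes were. At 2-fold or more were 0 of 8 and 1 of 14, where 1.84% and 1.94% of all genes were. The list thus held ratios well above and well below 0.

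**Figure D5:**
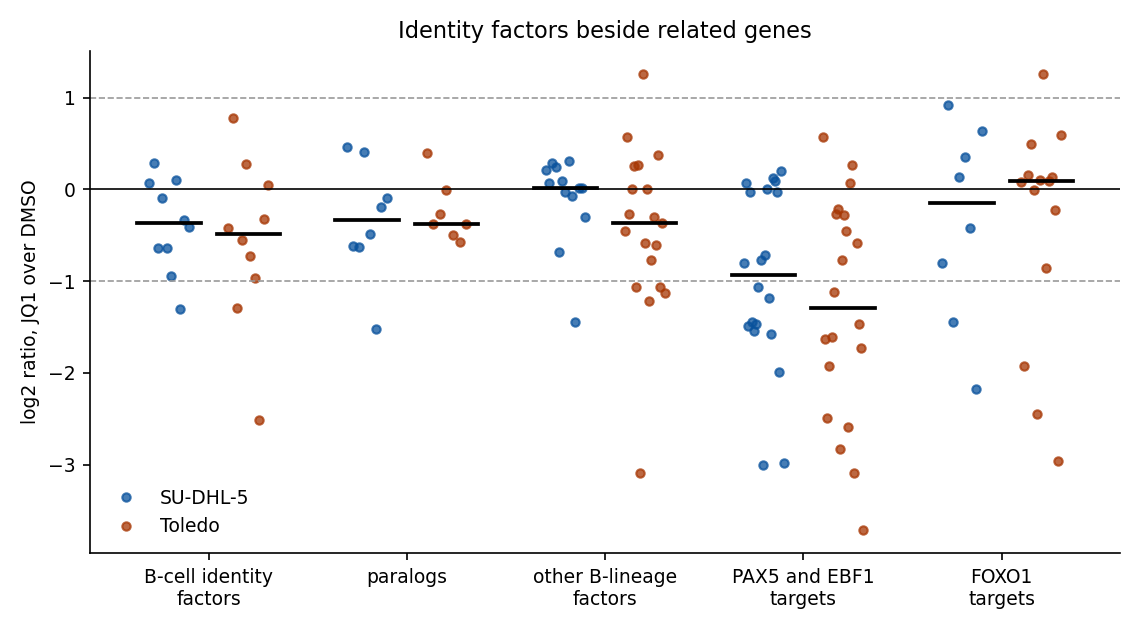
log2 ratio of JQ1 over DMSO for the identity factors and 4 related lists in SU-DHL-5 and Toledo. Each point is 1 gene of at least 1 RPKM in either sample, black bars are medians and dashed lines 2-fold differences. The medians of the PAX5 and EBF1 targets, -0.93 and -1.29, lie below those of the factors, -0.37 and -0.49. All lists were chosen with earlier results of these data known.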

How the data were processed

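RNA of 4 samples was sequenced as paired reads from libraries of a stranded mRNA kit. From trimmed reads the authors made RPKM values, which divide by feature length and mapped reads, and deposited a table of genes and another of transcripts. The submitters' processing notes name CASAVA 2.0 and GRCh38 (hg38). The aligner, the counting and the annotation are not given in the sources used here. Positions in the files overlapped RefSeq positions on GRCh38.p14 for 99.8% of 32699 shared symbols, and file starts were raised by 1 to count from 1.

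The number of mapped reads of each library was recovered as the total that made values of single-exon genes whole reads, and the length of a feature as the shortest, between 100 and 40000 bases, at which its values came out whole within 0.001 reads or, if larger, 2e-07 of the reads. This succeeded for 14942 of 14944 genes with a value and for 67 of 67 member transcripts with a value. For features with few reads the length can be too small by a factor. On reads simulated from these libraries, recovery was complete for 99.7% of the 9928 genes that had 50 reads or more in a library. The 2-fold rule called 100% of 197 genes set to 0.25 and 0% of 8983 unchanged genes. The simulated reads carried counting error only, with no variation between libraries or cultures, and 0.25 lies well past the threshold. These shares therefore do not give the error of the calls in the real samples. For each ratio, the reads of a gene in the pair of samples gave a 95% exact binomial interval, corrected for mapped reads. No count model was fitted, and with n = 1 no test was made.

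Libraries of a sample were averaged, the pseudocount was 0.1 RPKM, and genes of at least 1 RPKM in either sample were tested against the 2-fold rule. Transcripts with at least 10% of their gene in a sample could be named, and a GENCODE match allowed 5 bases. The 10 genes and the lists were chosen with earlier results of these data known, and all factors, and of each list the 2 lowest and 2 highest ratios, are named, except for values not reported here; MYC, HEXIM1, IRF8 and others from the lists are given where a result turns on them. Alternatives varied the pseudocount, the library, the scaling, the length centring (20 classes), the table, the filter and the fold. Protein sequences were not used here. The software was Python 3.11.15 with scipy 1.17.1, pandas 2.3.3, numpy 2.4.6 and, for plots, matplotlib 3.10.9.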

Additional observations from a re-analysis of the deposited data

How the results depend on the processing

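The 3 medians of the factors kept their sign under all 8 alternatives. The limit to factors of at least 1 RPKM was met by all 10 and could not move the medians. They depended most on the library, with -0.41 and -0.33 from library 1 and library 2 alone for the JQ1 comparison of SU-DHL-5, -0.38 and -0.68 for the same comparison in Toledo, and -0.59 and -0.23 for Toledo against SU-DHL-5. With a fold of 1.5 in place of 2, the count of factors lower with JQ1 went to 4 in each line, and that of factors higher with JQ1 in Toledo to 1. The count of factors higher in Toledo than in SU-DHL-5 went to 3 and that of factors whose JQ1 ratio differs between lines to 4. Shares of all genes were counted for the fold of 2 only, so these counts have no background to be set against. Library 1 alone put 2 factors at 0.5 or less in SU-DHL-5, POU2AF1 with SPI1. The count of factors whose ratio differs between lines fell to 1 with a pseudocount of 1 RPKM, with scaling by the median ratio and with transcripts summed per gene. It stayed at 2 with centring on length and with library 1 alone, but there PAX5 took the place of POU2F2 beside SPI1. The count of 8 moved transcript shares over both lines (6 different transcripts) became 2 at 20 points, 18 in library 1 alone and 15 in library 2 alone, where no second library could set noise aside. Of 211 values of single factors, 191 moved by less than the spread between libraries and 20 by more. The sign changed in 4 of them, EBF1 (-0.06) and POU2F2 (-0.05) in SU-DHL-5 with centring on length, POU2F2 there with summed transcripts (-0.0081) and PAX5 in Toledo with library 2 alone (-0.02), and the cause was not tested. The values from library 1 or library 2 alone make up the spread between libraries, and all of them fell among the 191. No paired analysis was possible because there was 1 sample a condition. Depth limits EBF1 in SU-DHL-5 (327 reads) and POU2F2 in Toledo (133 to 294 reads).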

Other observations

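The ID proteins bind E proteins such as E2A and keep them from DNA. Of 4 ID genes, 2 passed 1 RPKM in SU-DHL-5, with a median log2 ratio of 0.08 for JQ1, and 3 in Toledo, with a median of 0.97. ID2 was at 27.9 and 30.0 RPKM with DMSO and at 63.1 and 61.8 RPKM with JQ1 in Toledo, 2.16-fold higher, and overlapped in SU-DHL-5 at 22.7 and 28.5 RPKM against 27.6 and 24.6 RPKM. ID1 was at 0.28 and 0.80 RPKM against 1.05 and 1.26 RPKM in Toledo, from 22 and 46 reads. It passed 1 RPKM there only with JQ1, and its own log2 ratio is the median of 0.97, between 1.11 for ID2 and 0.07 for ID3. ID3 was the highest of the family there, at 141 and 132 RPKM against 141 and 146 RPKM, with overlapping libraries, and TCF3 itself overlapped in Toledo as well. In SU-DHL-5, ID3 was at 35.5 and 34.2 RPKM against 37.4 and 38.8 RPKM. Under DMSO, 1 of 2 ID genes, ID3, was higher by 2-fold or more in Toledo, at 136.9 RPKM against 34.8 RPKM. Over all genes, 16.7% were.

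Of 14 genes that PAX5 is known to keep low in B cells, 13 were in the table, and 2 passed 1 RPKM in SU-DHL-5 and 5 in Toledo. In SU-DHL-5, where PAX5 was lower with JQ1, the 2 were XBP1, a plasma cell factor, at -1.20 and EMB at 0.05 on the log2 scale. In Toledo the lowest were LAT at -1.58 and XBP1 at -0.96 and the highest EMB at -0.43 and NOTCH1 at 0.43. LAT was at 1.29 and 1.20 RPKM with DMSO against 0.37 and 0.34 RPKM with JQ1 there, from 78 and 21 reads. It passed 1 RPKM only with DMSO. At 0.5 or less was 1 in each line, where 6.28% and 8.01% of all genes were, and 0 were at 2-fold or more. Under DMSO, XBP1 was at 14.3 RPKM in SU-DHL-5 and 56.5 RPKM in Toledo, and CCL3 at 0.04 and 10.4 RPKM.

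MYC, a gene often lowered by BET inhibitors, was at 44.1 and 40.9 RPKM with DMSO and at 35.2 and 34.4 RPKM with JQ1 in SU-DHL-5, and at 40.4 and 44.4 RPKM against 44.6 and 42.1 RPKM in Toledo, where the libraries overlapped.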
